A study of Mus musculus with 16 samples.

Results

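Isoenzyme genes of glycolysis, 10 in all, were followed over lungs, heart and skin fibroblasts of mice with and without nuclear myosin 1: the hexokinases Hk1 and Hk2, the phosphofructokinases Pfkl, Pfkm and Pfkp, the aldolases Aldoa and Aldoc, the enolase Eno3 and the lactate dehydrogenases Ldha and Ldhb. They were chosen by name, and every probe set that the array annotation gives to 1 of them alone was taken, which made 19 probe sets for 10 genes, out of 45037 probe sets and 17097 genes on the array. Aldoa had 4 probe sets, Pfkl 3, Hk1, Pfkp, Aldoc and Ldhb 2 each, and Hk2, Pfkm, Eno3 and Ldha 1 each. A gene is described by its probe set with the highest mean over the 16 arrays unless another is named. All values are log2 signals, so a difference of 1 is a doubling.

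The knockout (KO) mice are labelled as lacking NM1 (nuclear myosin 1, which the gene Myo1c encodes as one of its isoforms), and the controls were wild type (WT). Lungs and heart were taken from the same 6 mice, KO 1602, 1603 and 1586 and WT 1592, 1624 and 1593, and the fibroblasts from KO 1584 and 1550 and WT 1571 and 1623. Each genotype thus had 3 lungs, 3 hearts and 2 fibroblast samples, with every number taken to be its own animal. The sources used here do not give the strain, age or sex of the mice, or the part of Myo1c that was removed. The titles call the fibroblasts cells and give them other mouse numbers than the organs. In comparisons with them, tissue, animal and any effect of growth in culture cannot be told apart.

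Glycolysis splits glucose into pyruvate, and several of its steps are carried by isoenzymes, proteins from different genes that catalyse the same reaction with different kinetics and control. Striated muscle is known for its own set, with PFK-M, aldolase A and beta enolase, and heart for lactate dehydrogenase built mainly from LDH-B subunits, while LDH-A is the form of muscle under load and of many dividing cells. Hexokinase 1 is widespread, and hexokinase 2 is the insulin-responsive form of muscle and fat.

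For orientation on how differently these genes start, the 150 bases before the transcription start are printed for 4 members that RefSeq gives a single start (assembly GRCm38.p6, 5′ to 3′ on the gene's strand). Hk2, Eno3 and Ldhb are shown because their transcripts stood higher in heart than elsewhere, and Pfkp because its level hardly moved between tissues. Capitals mark a GC box (GGGCGG, or CCGCCC on the other strand) or the core of a hypoxia response element (ACGTG, or CACGT on the other strand).
Hk2 (chr6:82774455-82774604, minus strand): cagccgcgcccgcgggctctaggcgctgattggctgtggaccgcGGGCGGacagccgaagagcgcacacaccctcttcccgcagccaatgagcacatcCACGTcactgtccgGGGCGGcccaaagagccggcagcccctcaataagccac
Eno3 (chr11:70657026-70657175, plus strand): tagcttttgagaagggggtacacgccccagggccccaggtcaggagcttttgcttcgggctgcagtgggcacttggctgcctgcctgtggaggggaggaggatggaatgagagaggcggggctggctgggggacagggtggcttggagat
Ldhb (chr6:142507958-142508107, minus strand): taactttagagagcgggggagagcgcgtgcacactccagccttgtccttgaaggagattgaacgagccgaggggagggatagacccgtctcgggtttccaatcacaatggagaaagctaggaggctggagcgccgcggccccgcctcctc
Pfkp (chr13:6648772-6648921, minus strand): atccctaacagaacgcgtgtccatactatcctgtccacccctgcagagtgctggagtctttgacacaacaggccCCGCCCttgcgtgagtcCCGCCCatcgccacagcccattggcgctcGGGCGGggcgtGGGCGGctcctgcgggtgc

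The Hk2 window held 2 GC boxes and 1 ACGTG, the Pfkp window 4 GC boxes, and the Eno3 and Ldhb windows held neither motif. Among 32851 RefSeq promoter windows of the same 150 bases, 28.6% held a GC box and 11.2% an ACGTG, searched on both strands. The muscle E-box CAGCTG, present in 8.39% of all windows, was found in none of the 18 windows of the 10 genes. ACGTG was also found before 1 of the 4 starts of Pfkm, 1 of the 3 of Aldoa and 1 of the 2 of Ldha. Over 300 bases around the start, Eno3 had 3 CpG dinucleotides, Ldhb 17, Pfkp 21 and Hk2 25, against a median of 7 over all promoters (quartiles 3 and 20). These matches describe letters in a window, and a missing match says only that the letters are not in it.

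Samples carried the markers of their labels, and some also showed markers of other sources. Values given for a list of markers are means over its measured genes, unless a gene is named. The mean of the 4 Myo1c probe sets, which do not tell NM1 from the other isoforms, ran from 6.31 to 7.09 in KO and from 7.55 to 8.35 in WT lungs, from 5.92 to 6.00 and from 6.60 to 6.83 in hearts, and from 6.24 to 6.26 and from 7.52 to 7.81 in fibroblasts. Lung epithelium markers (4 measured) lay between 13.4 and 13.6 in lungs. They lay at 5.06 and 5.13 in the hearts of KO 1603 and KO 1586 and between 3.38 and 3.81 in the other hearts. The mean of the 6 fibroblast markers lay between 9.16 and 9.90 in fibroblasts. Of these, Lum was higher in heart (median 9.92) than in fibroblasts (median 7.80). The mean of 7 measured heart muscle markers, among them Myl2, Tnni3 and Actc1, lay between 13.2 and 13.3 in the 6 hearts and between 3.39 and 3.53 in the 4 fibroblast samples. Lungs were uneven for this list. It lay at 4.61 in KO 1602, 8.31 in KO 1603, 7.41 in KO 1586, 7.98 in WT 1592, 6.57 in WT 1624 and 6.52 in WT 1593. The mean of 9 skeletal muscle markers stayed between 3.06 and 3.22 there. Of the heart muscle markers, Myl2 stayed between 3.19 and 4.14 in lungs and Myl3 between 4.31 and 6.46. Actc1 ran there from 7.46 to 11.6, Tnnt2 from 5.45 to 10.7 and Tnni3 from 4.80 to 10.2. Ryr2 and Ckmt2 reached 7.23 and 7.84. Adipocyte markers (5 measured) were at 7.99, 8.46 and 6.29 in the lungs of KO 1603, KO 1586 and WT 1592, and between 3.07 and 3.52 in the other lungs. In hearts they lay between 4.35 and 5.70, highest in WT 1593. Of these markers, Lep did not exceed 4.29 in lungs, and Cidea lay between 8.58 and 9.13 in hearts. The heart of KO 1602 had an upper quartile of all signals of 5.63, against 6.17 to 6.31 in the other hearts. Atrial markers (4 measured) also varied between hearts, with 5.47 and 6.30 in KO 1602 and KO 1586 and 10.3 to 12.2 in the rest. In lungs the atrial markers lay at 10.3 in KO 1603, 9.28 in KO 1586 and 9.94 in WT 1592. The other lungs read 5.98 (KO 1602), 7.53 (WT 1624) and 7.26 (WT 1593). Of the atrial markers, Dkk3 was higher in fibroblasts (median 9.50) than in heart (median 7.65), and it lay between 6.71 and 7.52 in lungs. In tissue and cell RNA, fewer cells of a type and less RNA per cell cannot be told apart.

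**Figure D1:**
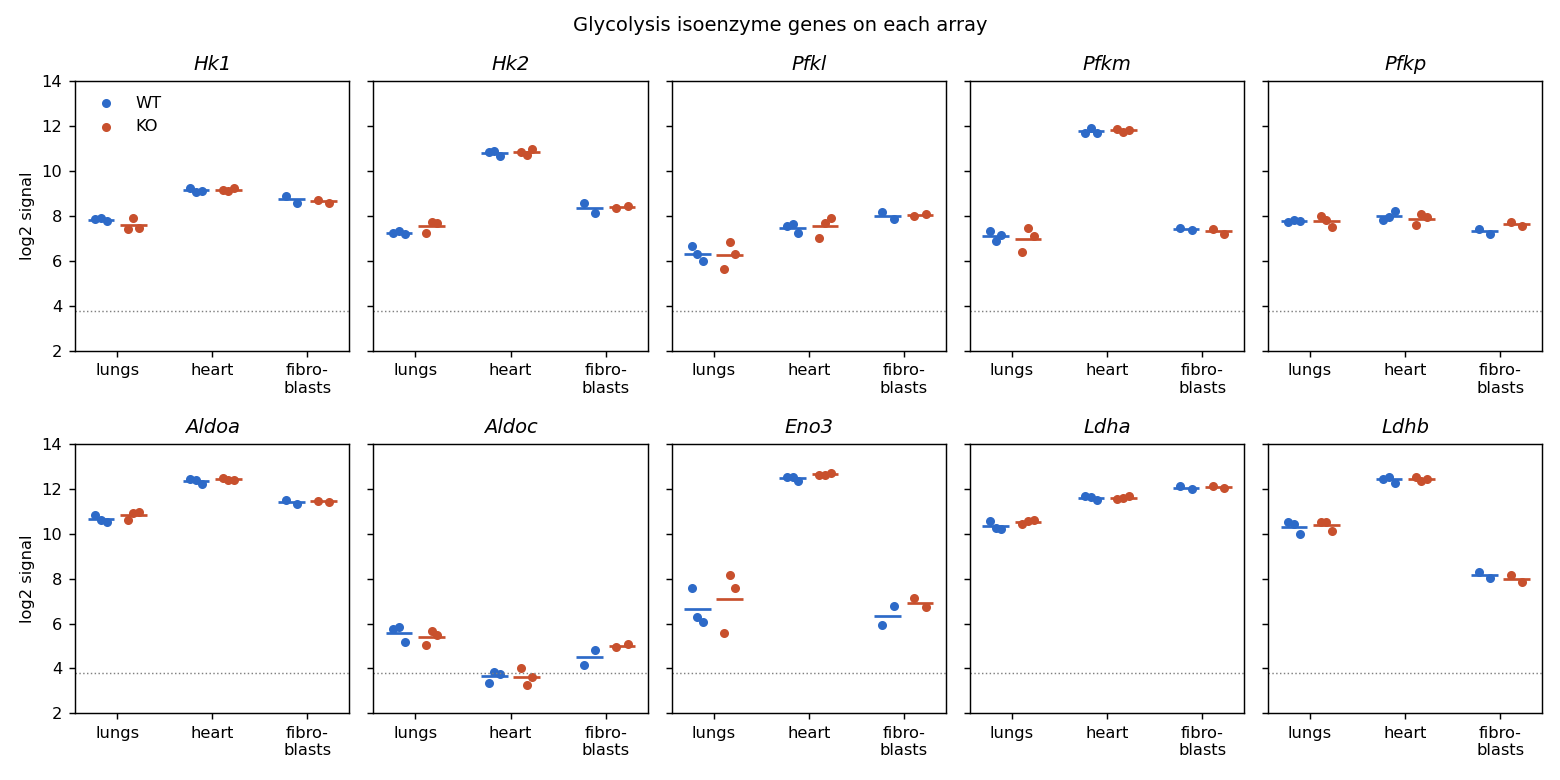
Log2 signal (vertical axis) of the main probe set of each of the 10 genes on every array, by tissue, with WT in blue and KO in orange. Points are arrays, short lines are group means, and the dotted line is the filter at 3.79; Hk2, Pfkm, Aldoa, Eno3 and Ldhb sit highest in heart, Ldhb lowest in fibroblasts, and Aldoc falls to the filter in heart.

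Heart stood apart from lungs for 9 of the 10 genes. Of the 19 member probe sets, 17 passed the filter on low values, and 14 of them were lower in lungs than in heart and 1 was higher (limma, adjusted p under 0.05). Over all 24947 probe sets tested, 29.1% were called lower in lungs and 46.5% higher. The median difference of the members that passed was -1.63, beside 0.26 over all probe sets tested, or 0.06 for all probe sets after quantile normalization. Counted by gene, 8 were lower in lungs, Aldoc was higher and Pfkp was not called. In each of the 6 mice, lungs lay below heart for Hk1, Hk2, Pfkl, Pfkm, Aldoa, Eno3, Ldha and Ldhb and above it for Aldoc, while Pfkp was lower in lungs in 5 of 6.

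Between heart and fibroblasts, 11 member probe sets were higher in heart and 4 lower, where 30.5% and 45.4% of the 24631 probe sets tested were called in these directions. Of the 10 genes, 7 were higher in heart and 3 lower, namely Pfkl, Aldoc and Ldha. Between lungs and fibroblasts, 4 member probe sets were higher in lungs and 10 lower, against 34.6% and 39.5% of 25384 tested. By gene, Ldhb, Aldoc and Pfkp were higher in lungs, and Hk1, Hk2, Pfkl, Aldoa and Ldha lower. The 3 tissue comparisons share their arrays in pairs. The median over the members that passed was 0.90 for heart against fibroblasts and -0.67 for lungs against fibroblasts, beside -0.24 and -0.08 over all probe sets tested.

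**Figure D2:**
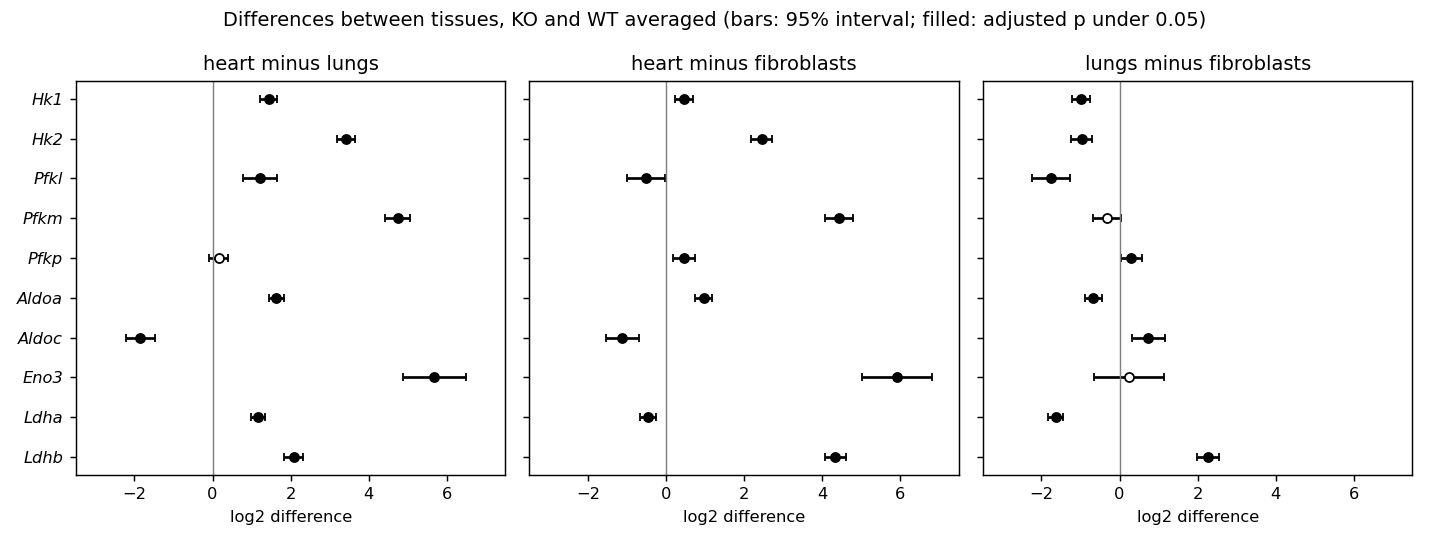
Log2 differences between tissues (horizontal axis) for the main probe set of each gene, with 95% intervals from the limma fit; filled points passed an adjusted p of 0.05. Eno3, Pfkm and Hk2 lie farthest right for heart against lungs, at 5.68, 4.74 and 3.42, and Aldoc lies left of 0.

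Hexokinases trap glucose as glucose 6-phosphate. Hk1, the widespread form, ranged from 7.42 to 7.89 in the 6 lungs (median 7.81) and from 9.07 to 9.24 in the 6 hearts (median 9.13), and the fibroblasts read 8.72, 8.57, 8.90 and 8.57 (KO 1584, KO 1550, WT 1571, WT 1623, the order used from here on). The 3 tissues did not overlap for this gene. Its difference was -1.44 for lungs against heart (SE 0.0976, limma adjusted p = 9.51e-09), -0.98 for lungs against fibroblasts (SE 0.109, adjusted p = 2.03e-06) and 0.46 for heart against fibroblasts (SE 0.109, adjusted p = 0.0017). The other Hk1 probe set gave -1.83, -1.60 and 0.22, and its last value was not called (limma adjusted p = 0.228).

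Hk2, the inducible form of muscle and fat, ranged from 7.19 to 7.73 in lungs (median 7.28) and from 10.65 to 10.99 in heart (median 10.84), and fibroblasts read 8.36, 8.42, 8.59 and 8.12. All hearts lay above all fibroblasts, and these above all lungs. The gap between lungs and heart was -3.42 (SE 0.110, limma adjusted p = 4.47e-12), a 10.7-fold lower signal in lungs. Heart exceeded fibroblasts by 2.45 (SE 0.123, limma adjusted p = 3.64e-10), and lungs differed from fibroblasts by -0.97 (SE 0.123, adjusted p = 7.49e-06). Within an array, Hk2 relative to Hk1 was thus 3.95-fold higher in heart than in lungs and 3.98-fold higher than in fibroblasts, with no overlap, whereas the balance in lungs and fibroblasts overlapped.

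Phosphofructokinase commits the sugar to glycolysis, and its tetramers are built from muscle (Pfkm), liver (Pfkl) and platelet (Pfkp) subunits. Pfkm ranged from 6.39 to 7.46 in lungs (median 7.12) and from 11.68 to 11.90 in heart (median 11.79), and fibroblasts read 7.41, 7.20, 7.46 and 7.39. The hearts stood far above both other sources, which overlapped. Lungs differed from heart by -4.74 (SE 0.149, limma adjusted p = 3.5e-12), a 26.7-fold lower signal, and heart from fibroblasts by 4.42 (SE 0.167, adjusted p = 2.05e-11). Lungs against fibroblasts gave -0.32, which was not called (SE 0.167, limma adjusted p = 0.0957). That difference was called without the lungs of KO 1603, at -0.44 (adjusted p = 0.015).

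Pfkl, the subunit named for liver, ran the other way between heart and fibroblasts. It ranged from 5.63 to 6.85 in lungs (median 6.30) and from 7.02 to 7.89 in heart (median 7.60), and fibroblasts read 8.01, 8.08, 8.18 and 7.86. Lungs lay below both other sources in every sample, while heart and fibroblasts touched. The differences were -1.22 for lungs against heart (SE 0.202, limma adjusted p = 8.78e-05) and -1.74 for lungs against fibroblasts (SE 0.226, adjusted p = 9.32e-06). Heart against fibroblasts gave -0.52 (SE 0.226, limma adjusted p = 0.049), a call that ended when any array but the heart of KO 1586 was left out, 9 of 10 (adjusted p between 0.0504 and 0.148), and after quantile normalization (-0.31, adjusted p = 0.198). It ended as well without the filter (limma adjusted p = 0.0753) and with WT or KO arrays alone (adjusted p = 0.155 and 0.175). A second Pfkl probe set gave -0.50, -1.54 and -1.04 for the comparisons in the same order, all called, and the third gave 0.13, -0.04 and -0.17, none called. Lungs and heart overlapped for the second (limma adjusted p = 0.0285), which was lower in lungs in 4 of 6 mice. The third was lower in lungs in 1 of 6.

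Pfkp, the platelet form, moved least. It ranged from 7.52 to 7.98 in lungs (median 7.79) and from 7.57 to 8.24 in heart (median 7.95), and fibroblasts read 7.71, 7.54, 7.43 and 7.21. Lungs overlapped with heart and with fibroblasts, and so did heart with fibroblasts. Heart exceeded fibroblasts by 0.46 (SE 0.130, limma adjusted p = 0.00507), and this was not called in KO arrays alone (0.25, adjusted p = 0.237). The lungs against heart difference of -0.16 was not called (SE 0.116, limma adjusted p = 0.227) but was after quantile normalization, at -0.24 (adjusted p = 0.0265). Lungs exceeded fibroblasts by 0.31 (SE 0.130, limma adjusted p = 0.0467), and this call ended when 8 of the 10 arrays were left out in turn, all but the lungs of KO 1586 and the fibroblasts of WT 1571 (adjusted p between 0.0587 and 0.156). It also ended without the filter (adjusted p = 0.0719) and in KO arrays alone (0.16, limma adjusted p = 0.464). The second Pfkp probe set lay below the filter in every comparison.

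The balance of Pfkm against the other subunits shifted most in heart. Pfkm relative to Pfkl was 30.7-fold higher in heart than in fibroblasts and 11.5-fold higher than in lungs, and relative to Pfkp 15.5-fold and 23.9-fold higher. No heart overlapped with another source in either of these balances. Pfkp relative to Pfkl differed most between lungs and fibroblasts, 4.13-fold higher in lungs without overlap. In heart this balance was 2.09-fold lower than in lungs, with overlap, and 1.98-fold higher than in fibroblasts, without overlap. Only shifts between groups are read here, because the levels of different probe sets cannot be set against each other.

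Aldolase cleaves fructose 1,6-bisphosphate, with Aldoa the form of muscle and most cells and Aldoc that of brain. Aldoa ranged from 10.52 to 10.94 in lungs (median 10.74) and from 12.19 to 12.48 in heart (median 12.39), and fibroblasts read 11.47, 11.40, 11.48 and 11.32. The order heart, fibroblasts, lungs held without overlap. Lungs differed by -1.63 from heart (SE 0.0893, limma adjusted p = 9.57e-10) and by -0.67 from fibroblasts (SE 0.0998, adjusted p = 3.52e-05), and heart exceeded fibroblasts by 0.96 (SE 0.0998, adjusted p = 7.99e-07). The other 3 Aldoa probe sets were called in the same directions, from -1.91 to -1.56 for lungs against heart. All 4 belong to a class whose probes can also match other transcripts, as does the main Ldhb probe set.

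Aldoc was the one member higher in lungs than in heart. It ranged from 5.06 to 5.84 in lungs (median 5.58) and from 3.27 to 4.0 in heart (median 3.70), where its mean of 3.65 lay under the filter of 3.79, and fibroblasts read 4.97, 5.07, 4.17 and 4.84. No heart reached a lung or a fibroblast sample, and lungs overlapped with fibroblasts only at KO 1602. The difference was 1.85 for lungs against heart (SE 0.174, limma adjusted p = 3.26e-07), 0.73 for lungs against fibroblasts (SE 0.195, adjusted p = 0.00376) and -1.12 for heart against fibroblasts (SE 0.195, adjusted p = 0.000133). Aldoc passed the filter only through lungs or fibroblasts, so a difference from heart was bound to appear in both comparisons with heart. The lungs against fibroblasts call was absent in KO arrays alone (0.38, limma adjusted p = 0.234) and without the lungs of KO 1603, KO 1586 and WT 1592 together (0.52, adjusted p = 0.0841). The mean of the Schwann cell and glia markers (3 measured) lay between 2.97 and 3.71 on all arrays. Of these, Sox10 had a median of 4.42 in heart, and S100b reached 4.47 in lungs. The second Aldoc probe set lay below the filter throughout.

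Eno3, the beta enolase of striated muscle that makes phosphoenolpyruvate, showed the largest difference of the 10 genes in both comparisons with heart. The 3 KO lungs read 5.56 (1602), 8.16 (1603) and 7.59 (1586) and the 3 WT lungs 7.57 (1592), 6.29 (1624) and 6.07 (1593). Hearts ranged from 12.34 to 12.68 (median 12.57), and fibroblasts read 7.14, 6.72, 5.95 and 6.76. Every heart lay above every other sample, and lungs and fibroblasts overlapped widely. Lungs differed from heart by -5.68 (SE 0.373, limma adjusted p = 6.6e-09), a 51.1-fold lower signal, and heart exceeded fibroblasts by 5.91 (SE 0.417, adjusted p = 1.28e-08), or 60.0-fold. Only 0.802% of the probe sets tested differed as much between lungs and heart. Lungs against fibroblasts gave 0.23 and was not called (SE 0.417, limma adjusted p = 0.627).

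Eno3 also had the largest spread of any member within a group, an SD of 1.37 among KO lungs (n = 3), against 0.0393 in its tightest group. The lungs high in Eno3 were those of KO 1603, KO 1586 and WT 1592. The same 3 were highest in heart muscle, atrial and adipocyte markers, and KO 1602 was lowest in Eno3 and in each of these lists. Pfkm in these lungs read 6.39, 7.46 and 7.10 in KO (1602, 1603, 1586) against 7.31, 6.86 and 7.14 in WT (1592, 1624, 1593), with the same lowest and highest samples. Pfkl read 5.63, 6.85 and 6.30 in KO and 6.64, 6.29 and 6.00 in WT, again lowest in KO 1602 and highest in KO 1603. Leaving out those 3 lungs together, an alternative added after seeing the data, turned Eno3 for lungs against fibroblasts to -0.77 (limma adjusted p = 0.00447) and made the Pfkm difference -0.67 (adjusted p = 0.000548). Fibroblast markers were also highest in KO 1603, KO 1586 and WT 1592, at 6.77, 6.68 and 6.56 (5.96 to 6.32 in the other lungs). So were neutrophil markers (4 measured), at 7.14, 7.60 and 6.53 (4.91 to 6.10 in the other lungs). Erythroid markers (3 measured) were lowest in these 3 lungs, at 7.13, 7.08 and 6.75, and smooth muscle markers did not set them apart. The part that transcripts of any of these lists have in the values was not tested.

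**Figure D3:**
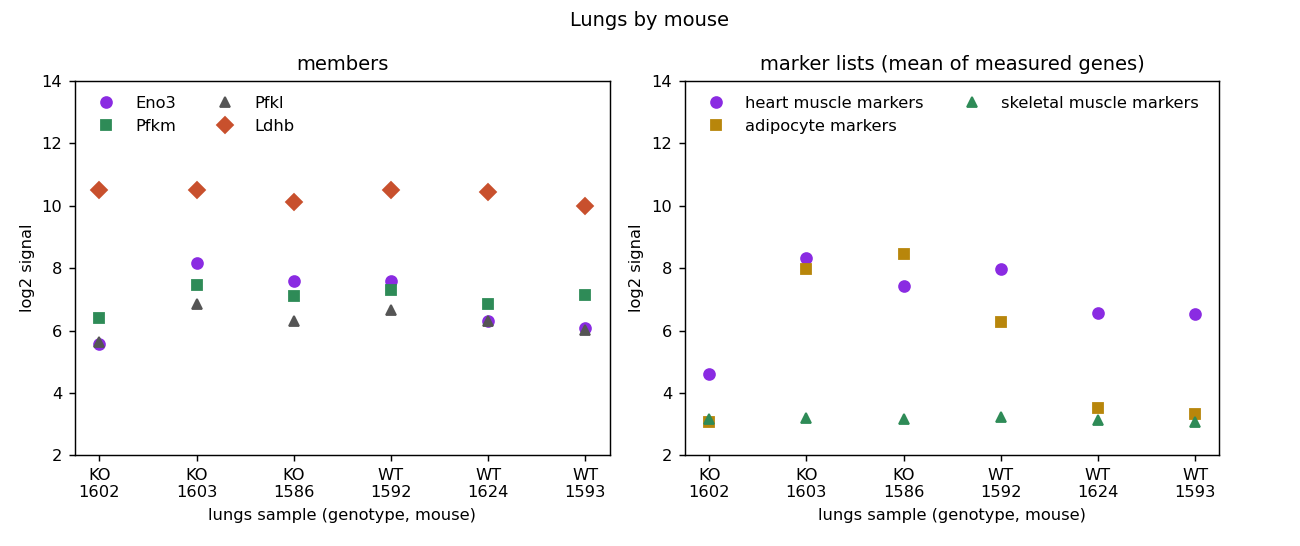
Log2 signal (vertical axis) in the lungs of each mouse for Eno3, Pfkm, Pfkl and Ldhb (left) and for the mean of heart muscle, adipocyte and skeletal muscle markers (right). Eno3 is highest in KO 1603 at 8.16 and lowest in KO 1602 at 5.56, as are the heart muscle markers at 8.31 and 4.61, while Ldhb stays between 9.99 and 10.51.

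Lactate dehydrogenase interconverts pyruvate and lactate. Ldha, the subunit of working muscle and dividing cells, ranged from 10.22 to 10.59 in lungs (median 10.49) and from 11.49 to 11.69 in heart (median 11.60), and fibroblasts read 12.13, 12.03, 12.11 and 11.98. The order fibroblasts, heart, lungs held without overlap. Lungs differed by -1.17 from heart (SE 0.0813, limma adjusted p = 1.22e-08) and by -1.63 from fibroblasts (SE 0.0909, adjusted p = 1.58e-09), and heart by -0.46 from fibroblasts (SE 0.0909, adjusted p = 0.000361).

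Ldhb, the subunit that predominates in heart, ranged from 9.99 to 10.51 in lungs (median 10.47) and from 12.26 to 12.54 in heart (median 12.44), and fibroblasts read 8.16, 7.84, 8.30 and 8.03. The order was heart, lungs, fibroblasts, with no overlap. Heart exceeded fibroblasts by 4.33 (SE 0.129, limma adjusted p = 2.12e-12), or 20.2-fold, and lungs differed from heart by -2.07 (SE 0.115, adjusted p = 1.09e-09). Lungs exceeded fibroblasts by 2.26 (SE 0.129, limma adjusted p = 2e-09), and the second Ldhb probe set gave -1.97, 2.27 and 4.24 for lungs against heart, lungs against fibroblasts and heart against fibroblasts.

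The 2 subunits thus moved against each other between organs and fibroblasts. Ldhb relative to Ldha was 27.8-fold higher in heart than in fibroblasts and 14.9-fold higher in lungs than in fibroblasts. Heart exceeded lungs in this balance by 1.87-fold, and no array of one source overlapped with another. The log2 balance lay between 0.75 and 0.95 in the 6 hearts, between -0.46 and 0.21 in lungs and between -4.19 and -3.80 in fibroblasts. For the aldolases, Aldoa relative to Aldoc was at least 9.82-fold higher in heart than in lungs and at least 3.71-fold higher than in fibroblasts, with Aldoc set to no less than the filter of 3.79 in each heart, since its mean there lay under it.

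**Figure D4:**
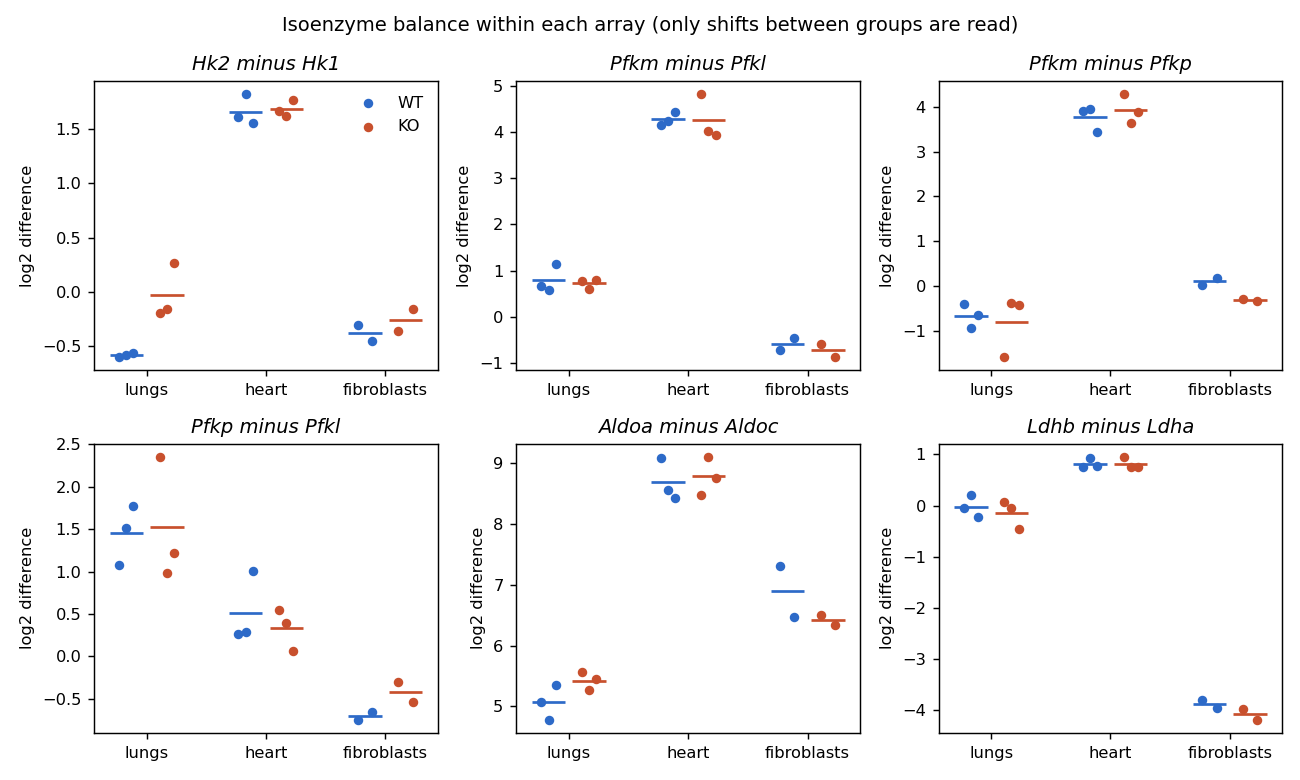
Log2 difference between 2 isoenzymes on the same array (vertical axis, scale differs by panel) by tissue, with WT in blue and KO in orange; points are arrays and lines are group means. Ldhb minus Ldha falls from 0.82 in heart to -3.98 in fibroblasts, and Pfkm minus Pfkl from 4.28 to -0.66.

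For none of the 10 genes did KO and WT pass the test. None of the 17 member probe sets kept in lungs, the 16 in heart or the 17 in fibroblasts was called (limma, adjusted p under 0.05), where 0.0301%, 0.127% and 0.0549% of all probe sets tested were. At an unadjusted limma p under 0.05 there was 1 member probe set in lungs, 1 in heart and 0 in fibroblasts. These were the second Hk1 probe set in lungs, at -0.46 (limma adjusted p = 0.711), and a second Pfkl probe set in heart, at -0.63 (limma adjusted p = 0.263). For that Pfkl probe set the KO hearts read 4.52 (1602), 5.29 (1603) and 5.81 (1586) and the WT hearts 5.88, 5.90 and 5.72, and the lowest was the heart whose upper quartile stood apart. The median over the members kept was 0.08 in lungs, 0.03 in heart and 0.04 in fibroblasts, beside -0.06, -0.16 and 0.02 over all probe sets tested.

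The intervals bound the size of a difference unevenly. For Ldha in heart, KO minus WT was 0.01 with a 95% interval from -0.24 to 0.26, and for Ldhb it was 0.01, from -0.34 to 0.36. For Pfkm in heart it was 0.05, from -0.40 to 0.50, and for Hk2 0.05, from -0.29 to 0.39. Eno3 was the least certain, with 0.46 in lungs (-0.68 to 1.59), 0.18 in heart (-0.96 to 1.31) and 0.58 in fibroblasts (-0.81 to 1.97). These intervals use the spread of a probe set pooled over the 6 groups. For Eno3 this pool holds the uneven KO lungs (SD 1.37), while its 6 hearts lay between 12.34 and 12.68. Its interval in heart therefore does not measure the spread of the hearts alone. By this pooled fit, a true difference of any size within the bounds is not excluded.

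The hexokinases in lungs came nearest to a difference among the main probe sets. Hk2 read 7.23, 7.73 and 7.70 in KO lungs (1602, 1603, 1586) and 7.25, 7.31 and 7.19 in WT lungs (1592, 1624, 1593), and KO exceeded WT by 0.30 (-0.03 to 0.64, limma adjusted p = 0.713). Hk1 read 7.42, 7.89 and 7.44 in KO and 7.85, 7.89 and 7.76 in WT, a difference of -0.25 (-0.55 to 0.04, adjusted p = 0.714). Both sets of groups overlapped. On each array, however, Hk2 minus Hk1 lay between -0.19 and 0.26 in KO lungs and between -0.60 and -0.57 in WT lungs, without overlap, a balance noticed after its values were seen and not tested. Of 18 pairs of a balance and a tissue, 4 did not overlap between genotypes, this one in lungs and 3 in fibroblasts, where a group is 2 arrays. Of single probe sets kept, 11.5% did not overlap between genotypes in lungs and 32.5% in fibroblasts, and the same share for pairs of other probe sets was not computed. The Hk2 samples above the rest were KO 1603 and KO 1586, the 2 lungs with the highest adipocyte, neutrophil and fibroblast markers. Leaving them out with WT 1592 brought the Hk2 difference to -0.02, and the part of transcripts of any of these lists was not tested.

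In fibroblasts, the KO samples read 7.71 and 7.54 for Pfkp and the WT samples 7.43 and 7.21. For Aldoc the KO samples read 4.97 and 5.07 and the WT samples 4.17 and 4.84. Both KO samples lay above both WT samples for these 2 of the 10 genes, where KO and WT did not overlap for 32.5% of all probe sets kept in fibroblasts, so the count is no result about these genes. The differences were 0.31 for Pfkp (-0.13 to 0.74) and 0.52 for Aldoc (-0.13 to 1.17), and neither was called (limma adjusted p = 1 for both). In heart, Eno3 read 12.62, 12.61 and 12.68 in KO against 12.51, 12.54 and 12.34 in WT, all KO above all WT, while the other 9 genes overlapped, and in lungs all 10 did. Among all probe sets kept, 17.6% did not overlap in heart and 11.5% in lungs, and nothing is read from the 1 and 0 members. Eno3 and Aldoc lie on the same chromosome as Myo1c, with 110 and 53 protein-coding genes between in the RefSeq order of GRCm38.p6.

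**Figure D5:**
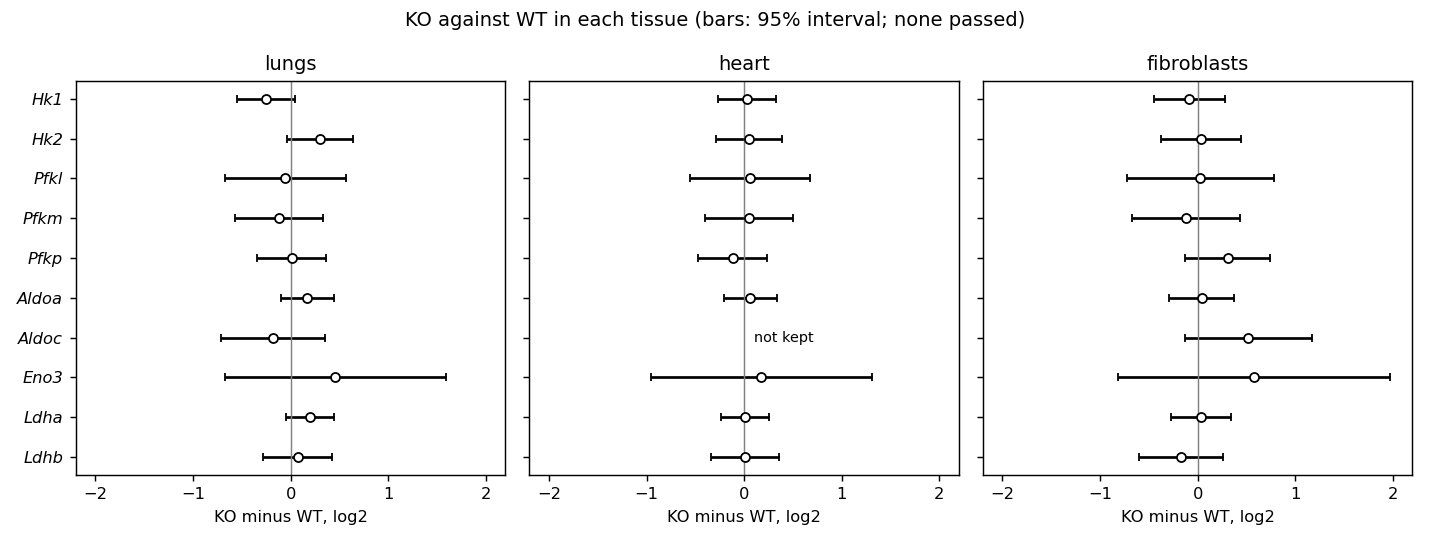
KO minus WT on the log2 scale (horizontal axis) for the main probe set of each gene in lungs, heart and fibroblasts, with 95% intervals from the limma fit. All intervals reach across 0, and the widest belong to Eno3, such as -0.81 to 1.97 in fibroblasts; Aldoc was below the filter in heart.

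The effect of genotype was also compared between tissues. No member probe set was called for lungs against heart, lungs against fibroblasts or heart against fibroblasts (limma, 17 kept in each), where 0.00%, 0.0197% and 0.0203% of all probe sets tested were called. At an unadjusted p under 0.05 there were 0 members in each of the 3. For lungs against heart 0 of 24947 probe sets were called and 1802 had an unadjusted limma p under 0.05. The smallest adjusted p of a member was 0.705 for lungs against heart, 0.987 for lungs against fibroblasts and 0.686 for heart against fibroblasts.

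Other enzymes of the pathway were counted from a list of 17, of which 12 were measured by a probe set of their own. Between lungs and heart, 5 of the 6 kept were lower in lungs and 1 higher (limma, adjusted p under 0.05), beside 29.1% and 46.5% of all probe sets tested. The largest differences were those of Pgam2, the muscle phosphoglycerate mutase, at -6.38, Tpi1, triose phosphate isomerase, at -2.11, Pkm, pyruvate kinase of muscle and most tissues, at -1.83, and Gapdh at -1.77. Between heart and fibroblasts 3 of 6 were higher in heart and 3 lower, beside 30.5% and 45.4% of all, led by Pgam2 at 7.24 and followed by Eno2, the neuronal enolase, at -2.07, Pgk1, phosphoglycerate kinase, at -0.93 and Pkm at -0.45. Between lungs and fibroblasts 5 of 7 were lower in lungs and 1 higher, beside 39.5% and 34.6% of all, with Pgk1 at -2.41, Pkm at -2.28, Eno2 at -2.06 and Tpi1 at -1.81. Eno2 lay at 2.81 in heart and 2.82 in lungs, under the filter, and was kept only through fibroblasts, so a difference was bound to appear and its size is not exact. Hkdc1 was the 1 gene called higher in lungs in both comparisons with lungs, where it lay at 3.88. Its means of 3.12 in heart and 3.18 in fibroblasts were under the filter, so these calls were bound to appear too.

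Genes that feed, drain and control glycolysis (29 of 32 measured) gave 16 lower and 8 higher in lungs than in heart of 26 kept, beside 29.1% and 46.5% of all probe sets tested. Pygm, muscle glycogen phosphorylase, differed by -5.81, Fbp2, muscle fructose bisphosphatase, by -5.36, Slc2a4, the insulin-responsive glucose transporter, by -5.01 and Pdk4, an inhibitor of pyruvate dehydrogenase, by -4.13. The same 4 led heart against fibroblasts, at 7.29, 5.46, 6.31 and 4.98, where 17 of 28 were higher in heart and 9 lower, beside 30.5% and 45.4% of all. Between lungs and fibroblasts 11 of 27 were higher in lungs and 9 lower, near the 34.6% and 39.5% of all, with Gpd1, glycerol phosphate dehydrogenase, at 3.35, Slc2a1, the basal glucose transporter, at -2.68, Slc16a7, a monocarboxylate transporter, at 2.42 and Pfkfb4, which sets fructose 2,6-bisphosphate, at 2.38. On 1 side of some of these differences the mean lay under the filter of 3.79, namely for Fbp2 in lungs (3.00) and fibroblasts (2.90) and for Pygm (2.98), Slc2a4 (3.32) and Gpd1 (2.82) in fibroblasts. The counts also hold Slc16a3 and Slc16a4, at 3.26 and 3.32 in lungs and 3.22 and 3.34 in heart. They hold Pdk2 as well, at 3.785 in fibroblasts, again under the filter. All of these genes were kept only through the other tissue, so a difference was bound to appear, and its size and its place in the order are not exact.

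Genes of the hypoxia response outside glycolysis (14 of 15 measured and kept) were counted with Hif1a itself among them. They gave 10 lower and 1 higher in lungs than in fibroblasts, beside 39.5% and 34.6% of all probe sets tested. Between heart and fibroblasts 9 were lower in heart and 3 higher, beside 45.4% and 30.5%. Adm, adrenomedullin, differed by -6.31 and -4.40 in these comparisons, P4ha2, a collagen prolyl hydroxylase, by -2.66 and -2.52 and Hif1a by -2.46 and -2.21. Egln3, an oxygen-sensing prolyl hydroxylase, differed by -2.78 for lungs against fibroblasts, and Egln1, its relative, by 2.15 for heart against fibroblasts. Between lungs and heart 4 were higher in lungs and 5 lower, beside 46.5% and 29.1% of all, with Egln3 at -4.34, Egln1 at -2.34, Adm at -1.90 and Vegfa at 1.30. Egln3 in lungs lay at 3.02, under the filter, and was kept only through the other tissue, so its differences from lungs were bound to appear and are not exact in size. Car9, counted in both comparisons with heart, lay at 3.45 there, also under the filter, so its calls were bound to appear too. No gene of the 3 lists was called between KO and WT in any tissue by limma.

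For each member, the 3 other genes with the most similar profile over the 16 arrays were taken from 18874 probe sets, by Pearson's r, which here mainly reflects the 3 sources. Eno3 was most like Carns1 (r = 0.995), Hspb7 (0.995) and Pgam2 (0.994), and Pfkm most like Mfn2, Yipf7 and Eef1a2 (0.998, 0.998 and 0.997). Hk2 was most like Smim20, Ptcd3 and Coq6 (0.996, 0.995 and 0.994) and Aldoa most like Pdha1, Cs and Clybl (0.995, 0.993 and 0.993). Ldhb ran with Syngr2, Prkaa2 and Aldh6a1 (0.995, 0.994 and 0.994), and Ldha with Glrx3, Fam162a and Pgk1 (0.991, 0.989 and 0.988). Hk1 was nearest to Slc35e1 (0.990), Polr1a (0.980) and Cdh2 (0.979), Pfkl to E130311K13Rik (0.969), Igdcc4 (0.966) and Galm (0.966), Aldoc to Supt20, 1700007K13Rik and Hmgb1 (0.959, 0.951 and 0.950), and Pfkp to Slc38a4 (0.908), Ccdc117 (0.877) and Cflar (0.874). Pfkp, whose level moved least, had the weakest likeness.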

How the data were processed

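RNA abundance was measured on Affymetrix mouse arrays, 16 in 6 groups of tissue and genotype, 1 value per probe set and array. The authors deposited log2 signals; the values themselves show this scale, with array medians between 3.65 and 3.93. Partek 6.4 is named in the submitters' processing notes. Not given in the sources used here are the background correction, the summary of probes and the normalization. There is no depth or detection call, and precision is limited by the number of arrays. Values were used as deposited.

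All 16 arrays entered 1 limma 3.58.1 fit of the 6 groups in R 4.3.3 (10 residual and 3.53 prior degrees of freedom). Tissue contrasts average KO and WT with equal weight. The filter kept a probe set whose mean in at least 1 of the tissues compared exceeded 3.79, the overall median. P-values are two-sided and Benjamini-Hochberg adjusted over all kept probe sets, and under 0.05 was called. They rest on the spread between samples within groups, pooled over the 6 groups for each probe set. The fit was tested on simulated data.

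The array annotation gives 1 gene for 28898 probe sets, several for 551 and none here for 15588; 28689 were matched to a current symbol. All members are named, with the 4 called genes of largest difference per list and tissue comparison, and the 3 most alike genes per member. Members and lists were chosen with earlier results of these data known. Promoters come from RefSeq (GRCm38.p6).

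Lungs and heart of 1 mouse share its number in the titles, which pairs them. Their deviations from the group means correlated with r of 0.0472, 0.0404, 0.155, 0.0995, 0.169 and 0.0961, and the random block had a consensus correlation of 0.0542. Alternatives were quantile normalization, no filter, fewer samples in the fit, 1 genotype alone, the mean of a gene's probe sets, the mouse as a block and each array left out.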

Additional observations from a re-analysis of the deposited data

How the results depend on the processing

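Counts of member probe sets called kept within 1.5 times of the values reported under all alternatives run. They ranged from 14 to 16 for lungs against heart, from 12 to 15 for lungs against fibroblasts and from 13 to 15 for heart against fibroblasts, and stayed at 0 for KO against WT in each tissue and for the 3 differences of genotype effects. With the mouse as a replicate block, 15, 14 and 15 member probe sets were called in the 3 tissue comparisons (15 with a fixed block for lungs against heart), and pairing changed no call of a main probe set.

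Leaving out the lungs of KO 1603, KO 1586 and WT 1592 together leaves 1 KO lungs array, assumed to vary like the other groups. It turned Eno3 to -0.77 for lungs against fibroblasts, and to -0.62 for KO against WT in lungs, where Hk2 turned to -0.018. With the mean of all probe sets of a gene, KO against WT turned to 0.12 for Pfkl in lungs and to -0.16 for Hk1 and -0.19 for Pfkl in heart. After quantile normalization it turned to 0.028 for Pfkp and -0.0067 for Ldhb in heart. None of these KO differences was called under any setting, and the cause was not tested.

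With each array left out in turn, values whose sign turned ranged as follows. Eno3 for lungs against fibroblasts gave -0.032 to 0.62. KO against WT in lungs gave -0.35 to 0.26 for Pfkl, -0.36 to 0.18 for Pfkm, -0.090 to 0.14 for Pfkp, -0.070 to 1.23 for Eno3 and -0.089 to 0.20 for Ldhb. In heart it gave -0.0050 to 0.081 for Hk1, -0.022 to 0.11 for Hk2, -0.12 to 0.32 for Pfkl, -0.23 to 0.033 for Pfkp, -0.012 to 0.11 for Aldoa, -0.045 to 0.055 for Ldha and -0.068 to 0.072 for Ldhb. In fibroblasts it gave -0.25 to 0.081 for Hk1, -0.20 to 0.27 for Hk2, -0.13 to 0.19 for Pfkl, -0.038 to 0.12 for Aldoa and -0.027 to 0.096 for Ldha. No detection call goes with these arrays, so weak signals such as that of Aldoc in heart are limited by an unknown background.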
